A study of Homo sapiens with 6 samples.

Results

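Complement components and regulators were followed in MDA-MB-231 cells, an estrogen receptor-negative line of human breast cancer origin, 6 days after LSD1 was depleted with siRNA. The set holds 8 genes, C1R, C1S, C3, CFB, CFI, CD46, CD55 and CD59, and was taken as every probe set that the platform annotation assigns to exactly 1 of these symbols. They are 8 of the 19775 genes with a probe set of their own and hold 19 of the 54675 probe sets on the array. The genes were selected on signals of these same arrays, with their difference between LSD1 siRNA and control siRNA already known, so their values, and whether they passed the threshold applied to all genes, are a description and no test of the family. The control group holds 3 arrays of cells transfected with control siRNA. The other group holds 3 arrays of cells transfected with LSD1 siRNA. Both groups were transfected in 2 rounds, and their 3 replicates are biological according to the study's design text. A single LSD1 siRNA group was made, so effects of LSD1 loss and of the siRNA itself cannot be told apart, and all arrays come from 1 cell line.

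Complement is a cascade of plasma and cell-surface proteins that tags and lyses microbes and damaged cells. The proteases C1r and C1s start the classical pathway, factor B drives the amplification loop of the alternative pathway, and both routes converge on cleavage of C3, whose fragments coat targets and attract leukocytes. Host cells protect themselves with soluble factor I and with the membrane proteins CD46, CD55 and CD59. The liver makes most plasma complement, but epithelial and tumour cells also make components, and inflammatory cytokines raise that output.

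The targeted gene checks the labels. KDM1A, which encodes LSD1, had signals of 2540, 2493 and 2295 on the control arrays and 291, 184 and 228 on the LSD1 siRNA arrays. The log2 change, -3.32 ± 0.13 (standard error), passed the test (limma adjusted p = 1.46e-08). Signals are MAS5 values in arbitrary units with a trimmed mean of 500.1 on each array, and a log2 change is taken on log2(signal + 15), which understates the change of dim genes. The number of arrays limits the precision, and the median standard error of a gene's log2 change was 0.11. Arrays of the same group correlated at 0.986 to 0.989. Of the 4 luminal markers, ESR1 and PGR lay between 17.0 and 95.2 on all arrays. FOXA1 lay between 199.5 and 249 and GATA3 between 456 and 565. Of the 4 basal-like and mesenchymal markers, VIM lay between 25223 and 37928 and CAV1 between 22725 and 27114. CD44 lay between 11744 and 13298 and EGFR between 3755 and 5143. Of these basal-like and mesenchymal markers, only EGFR passed the test, with a log2 change of -0.25 (limma adjusted p = 0.0191). Levels of different probe sets cannot be compared with one another. As a sign of RNA quality, the 3' over 5' ratio of ACTB was 1.74 on control array 1 and between 1.33 and 1.43 elsewhere. That of GAPDH was 1.03 on control array 1 and between 0.92 and 0.98 elsewhere.

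Promoters are printed for the 4 members that have an entry in the RefSeq promoter table and whose array groups do not overlap at the probe set representing the gene. They set the components C1R and CFB beside the membrane regulators CD46 and CD59. C3 and C1S are named only. Each line holds the 250 bases before the outermost RefSeq transcript start in build GRCh38.p14, written 5' to 3' along the gene, with motif matches on either strand in capitals. C1R lies on the minus strand at chr12:7092446-7092695, CFB on the plus strand at chr6:31945845-31946094, CD46 on the plus strand at chr1:207751788-207752037, and CD59 on the minus strand at chr11:33736480-33736729.
C1R: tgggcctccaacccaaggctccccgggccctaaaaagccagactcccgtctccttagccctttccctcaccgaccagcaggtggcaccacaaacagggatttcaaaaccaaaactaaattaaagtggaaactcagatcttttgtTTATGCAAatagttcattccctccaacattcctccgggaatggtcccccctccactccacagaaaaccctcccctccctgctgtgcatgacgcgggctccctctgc
CFB: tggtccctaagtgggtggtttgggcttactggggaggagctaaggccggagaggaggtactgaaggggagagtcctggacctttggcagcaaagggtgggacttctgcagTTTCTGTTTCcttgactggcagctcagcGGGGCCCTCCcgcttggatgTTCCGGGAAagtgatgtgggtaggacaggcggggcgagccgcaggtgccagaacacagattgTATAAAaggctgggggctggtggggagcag
CD46: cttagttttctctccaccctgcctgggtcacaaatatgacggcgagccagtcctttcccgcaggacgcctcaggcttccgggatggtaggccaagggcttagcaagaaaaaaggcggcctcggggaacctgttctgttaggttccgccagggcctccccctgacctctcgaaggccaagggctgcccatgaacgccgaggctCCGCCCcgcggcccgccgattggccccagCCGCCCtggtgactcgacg
CD59: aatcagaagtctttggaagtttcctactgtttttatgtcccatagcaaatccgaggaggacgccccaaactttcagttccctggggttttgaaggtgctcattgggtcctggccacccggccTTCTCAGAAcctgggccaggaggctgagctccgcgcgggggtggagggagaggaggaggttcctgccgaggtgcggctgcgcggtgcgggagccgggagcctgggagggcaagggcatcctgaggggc

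The search covered 7 motifs on both strands of these windows and of all 35116 RefSeq promoter windows of the same length. The NF-kappaB motif occurred in 9.96% of all windows. The interferon response element ISRE, spelled GAAANNGAAA, occurred in 3.02%. The STAT element GAS, spelled TTCNNNGAA, occurred in 6.57%. C/EBP, spelled TTGCNNAA, occurred in 9.05%. AP-1, spelled TGANTCA, occurred in 6.57%. TATA, spelled TATAAA, occurred in 10.7%. The GC box, spelled GGGCGG, occurred in 42.6%. The CFB window held an ISRE match 140 to 131 bases before the start, an NF-kappaB match 112 to 103 bases before it, a GAS match at 92 to 84 and a TATA match at 30 to 25. The C1R window held a C/EBP match 106 to 99 bases before the start, and CD59 a GAS match at 128 to 120. CD46 held 2 GC box matches and none of the others. RefSeq also lists further starts for C1R, CD46 and CD59, whose windows are among the 35116. At those starts C1R held a GAS match and another C/EBP match, CD46 GC box matches, and CD59 GAS, GC box, C/EBP and AP-1 matches. The share of G and C ran from 54.0% for C1R to 64.8% for CD46 over the 4 windows, against a median of 58.0% over all windows. A match is a stretch of letters and does not show that a factor binds there. The map of motif matches places 4 in the CFB window, none of them overlapping.

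**Figure D1:**
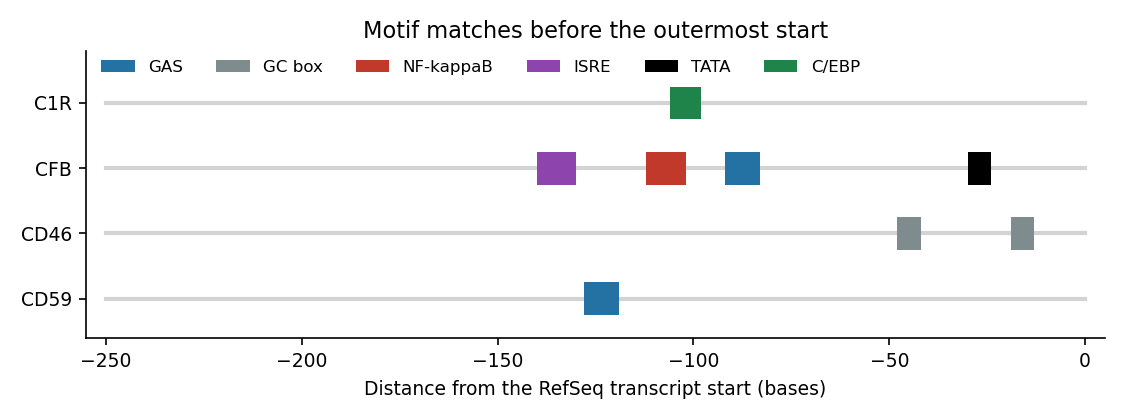
Motif matches (coloured boxes, to scale) in the 250 bases before the outermost RefSeq transcript start of C1R, CFB, CD46 and CD59, with distance from the start in bases on the horizontal axis. CFB holds 4 separate matches between 140 and 25 bases before the start, and CD46 holds 2 GC boxes.

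At their representing probe sets, C3, C1S, C1R, CFB, CD46 and CD59 were higher on every LSD1 siRNA array than on any control array. C3 and C1S rose by far more than C1R and CFB, and the 3 membrane regulators differed by small amounts. The groups overlapped for CD55 and for the second, dim CFB probe set, and CFI was not measurable. In these bulk samples, more RNA per cell and more cells that make the RNA cannot be told apart. Of the 8 genes, 7 passed the filter on dim signals, a mean of about 28.0, when each gene was represented by its brightest probe set. Of these 7, 5 were higher past an adjusted p of 0.05 in limma and 0 were lower (none had a value below 0), where 19.8% of all 13822 genes tested were higher and 21.3% were lower. By probe set, 15 of the 19 passed the filter. Of those 15, 9 were higher and 0 lower, beside 17.0% and 17.4% of the 27079 probe sets tested. The LSD1 siRNA arrays all lay above the control arrays for 12 of the 15, beside 22.5% of the probe sets tested. C1S, which passed the filter only through the LSD1 siRNA arrays, is in each of these counts of higher members. Because the members were chosen for this contrast, these counts support nothing about the family.

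**Figure D2:**
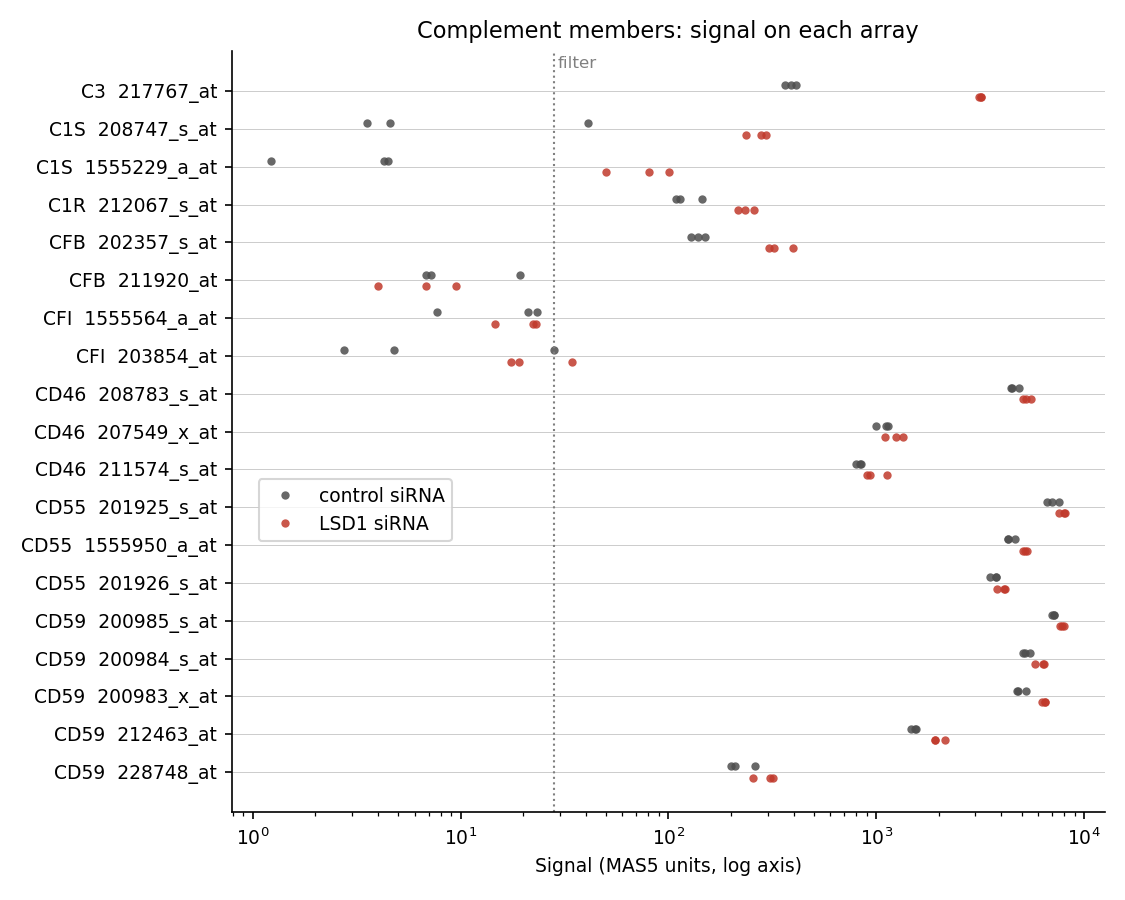
Signal (MAS5 units, log axis) of all 19 probe sets of the 8 genes, 1 point per array, with control siRNA in grey and LSD1 siRNA in red; the dotted line marks the filter at a signal of about 28.0. The groups are widely apart for C3 and both C1S probe sets, close together for CD46, CD55 and CD59, and mixed for CFI. Levels of different probe sets cannot be compared with one another.

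C3 is the component on which all activation routes converge. Its only probe set, 217767_at, gave 364, 388 and 409 on the control arrays and 3199, 3104 and 3199 on the LSD1 siRNA arrays. The groups were far apart, and the arrays within each lay close together, with SDs of 22.8 and 54.8 (n = 3 each). The mean signal was 8.18-fold higher, a log2 change of 2.99 ± 0.07 (standard error). Of the 13822 genes tested, 18 had a higher log2 change. Across the alternatives tried the log2 change lay between 2.85 and 3.03.

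C1S encodes the protease that cleaves C4 and C2 once C1r has activated it. Its brighter probe set, 208747_s_at, gave 40.8, 3.54 and 4.57 on the control arrays and 278, 237 and 295 on the LSD1 siRNA arrays. Control array 1 stood above the other control arrays, and all LSD1 siRNA arrays lay well above it. The mean control signal of 16.3 ± 21.2 (SD, n = 3) was below the filter, so this probe set passed only through the LSD1 siRNA arrays and the size of its change rests on dim controls. The log2 change, 3.38 ± 0.38 (standard error), became 4.73 with a constant of 1 and 2.14 with a constant of 60 in place of 15. Without control replicate 1, the array with the higher ACTB ratio, it was 3.90; the part of RNA quality in it was not tested. The second C1S probe set, 1555229_a_at, did not pass the filter, and gave 4.49, 4.26 and 1.23 against 50.2, 81.0 and 101. Its groups did not overlap either.

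C1R encodes the protease that activates C1s, and RefSeq places the 2 genes on chromosome 12 with 0 genes between them. Probe set 212067_s_at gave 146, 109 and 114 on the control arrays and 215, 257 and 234 on the LSD1 siRNA arrays. The groups did not overlap, and control array 1 was again the highest control. The mean signal was 1.92-fold higher, with a log2 change of 0.87 and a standard error of 0.16. Across the alternatives it lay between 0.69 and 0.98. C1R and C1S, though neighbours, thus had log2 changes of 0.87 and 3.38; the difference between them was not tested.

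CFB encodes factor B, the protease subunit of the alternative pathway convertase. Probe set 202357_s_at gave 139, 151 and 128 on the control arrays and 321, 397 and 306 on the LSD1 siRNA arrays. All LSD1 siRNA arrays were above all control arrays. The mean was 2.45-fold higher, with a log2 change of 1.20 and a standard error of 0.15. The other CFB probe set, 211920_at, stayed below the filter at 7.20, 19.2 and 6.77 against 9.52, 3.99 and 6.80, with overlapping groups. When both sets were averaged, the CFB log2 change was 0.48 and no longer passed the threshold.

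CFI encodes factor I, a plasma protease that inactivates C3b with the help of cofactors such as CD46. Neither of its probe sets passed the filter. Probe set 1555564_a_at gave 21.1, 7.68 and 23.3 on the control arrays and 22.3, 23.0 and 14.6 on the LSD1 siRNA arrays. Probe set 203854_at gave 2.73, 4.78 and 28.0 against 17.5, 34.5 and 19.1. The groups overlapped at both, and no difference was detectable at these signals.

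The 3 membrane regulators were represented by 11 probe sets, whose LSD1 siRNA means were 1.09-fold to 1.32-fold of their control means. CD46 is a cofactor for cleavage of C3b and C4b, CD55 speeds the decay of the C3 convertases, and CD59 blocks assembly of the membrane attack complex. Of the 11 probe sets, 5 were higher past the threshold in the fit over all probe sets and 6 did not pass, beside 17.0% higher among all probe sets tested. The LSD1 siRNA arrays lay above the control arrays without overlap for 8 of them, beside 22.5% of all. Nothing is read from these counts, since the members were chosen for this contrast. Each of these shifts is small beside those of C3 and CFB.

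CD46 has 3 probe sets here. The brightest, 208783_s_at, gave 4476, 4471 and 4870 on the control arrays and 5225, 5523 and 5093 on the LSD1 siRNA arrays, with no overlap. The log2 change, 0.20 ± 0.06 (standard error), passed. It no longer passed the threshold when the gene fit had no intensity trend or was unmoderated, or without control replicate 1, control replicate 2, LSD1 siRNA replicate 1 or LSD1 siRNA replicate 2, where the change lay between 0.16 and 0.20. In the fit over all probe sets it was also lost without LSD1 siRNA replicate 3 and with no filter. Probe set 211574_s_at gave 799, 844 and 831 against 905, 935 and 1131, and 207549_x_at gave 999.6, 1136 and 1115 against 1107, 1244 and 1345. The first of these did not overlap and the second did, and neither passed the threshold. Probe set 211574_s_at did pass with a filter at the 60th percentile, quantile normalization, a replicate block, or without LSD1 siRNA replicate 1.

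CD55 lies on chromosome 1 with CD46, and 3 protein-coding genes, CR2, CR1 and CR1L, lie between them in RefSeq. Its brightest probe set, 201925_s_at, gave 7024, 6665 and 7608 on the control arrays and 7561, 8100 and 8042 on the LSD1 siRNA arrays. These groups overlapped, and the log2 change of 0.16 with a standard error of 0.07 did not pass. Without control replicate 3, the highest control array, it was 0.21 and passed. With the mean of all 3 sets in place of the brightest, the CD55 log2 change was 0.17 and also passed. Probe set 1555950_a_at gave 4295, 4653 and 4302 against 5324, 5082 and 5204, a log2 change of 0.24 that passed, though not with no intensity trend. Probe set 201926_s_at gave 3529, 3788 and 3747 against 4107, 3793 and 4184 and did not pass. The 3 sets were thus all higher on average, by 1.09-fold to 1.18-fold.

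CD59 has 5 probe sets, of which 3 passed the threshold, beside 17.0% higher among all probe sets tested. The 5 sets were read on the same arrays and are not separate evidence. The brightest, 200985_s_at, gave 7175, 7028 and 7143 on the control arrays and 7837, 7681 and 8027 on the LSD1 siRNA arrays. Its groups did not overlap, but its log2 change of 0.14 with a standard error of 0.05 did not pass. In the gene fit it did pass with a filter at the 60th percentile, with median centring and in the unmoderated test, at 0.14 to 0.15. The dimmer sets gave larger values. Probe set 200983_x_at, whose suffix marks possible cross-hybridisation, gave 4781, 5250 and 4814 against 6467, 6280 and 6516, a log2 change of 0.38. Probe set 212463_at gave 1536, 1469 and 1557 against 2145, 1908 and 1927, a log2 change of 0.39. The groups were apart at both. Probe set 200984_s_at gave 5094, 5466 and 5188 against 5791, 6403 and 6346 and passed at 0.23, though not with no intensity trend, unmoderated, or without LSD1 siRNA replicate 2 or 3. Probe set 228748_at gave 259, 208 and 201 against 309, 319 and 255, and at 0.38 it did not pass, though it did with a filter at the 60th percentile, with a replicate block, and without control replicate 1 or LSD1 siRNA replicate 3. With the mean of all 5 sets in place of the brightest, the CD59 log2 change was 0.30 and passed. Differences among the sets were not tested.

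**Figure D3:**
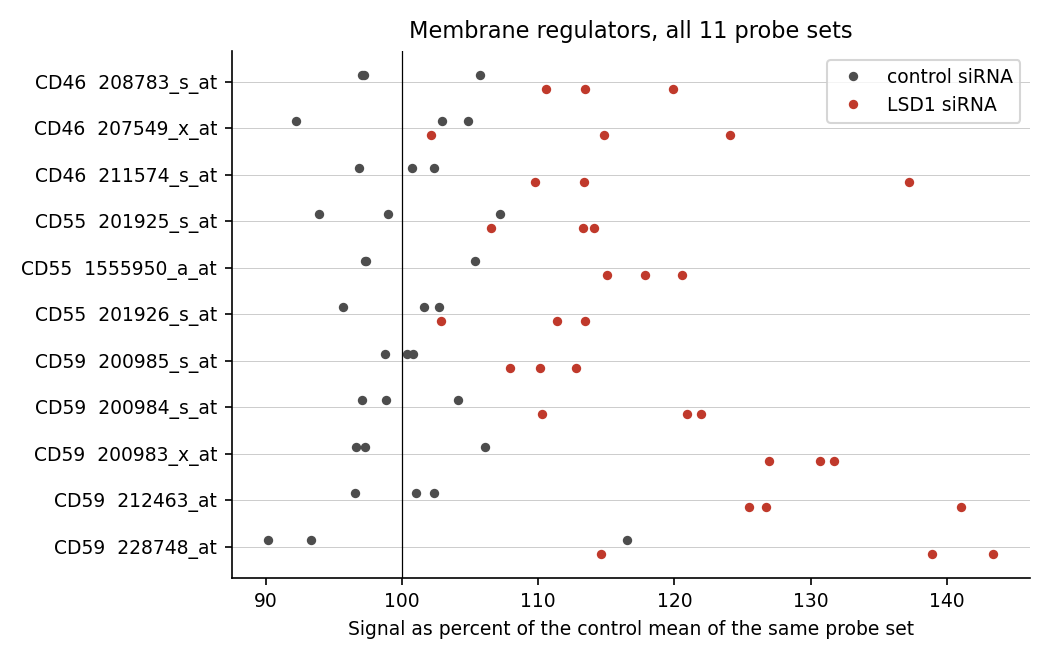
Signal of the 11 probe sets of CD46, CD55 and CD59 on each array as a percent of the control mean of the same probe set; 1 point per array, control siRNA in grey and LSD1 siRNA in red. LSD1 siRNA arrays lie above control arrays without overlap for 8 of the 11 probe sets, beside 22.5% of all probe sets tested. The members were chosen for this contrast. The largest ratio of group means is 1.32.

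Beyond the members, most complement genes on a textbook list of 51 were too dim to measure in these cells, and C3AR1, ITGB2, CLU, THBD and C1QBP passed the test. Of the 51, 7 had no probe set assigned to them alone, C4A among them, and 27 were below the filter. Of the 17 tested, 4 rose and 1 fell, shares not far from or below the 19.8% higher and 21.3% lower among all genes tested. Their median log2 change was 0.23, and that of all genes tested was -0.02. ITGAX, with a control mean of 23.1, passed the filter only through the LSD1 siRNA arrays.

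C3AR1, the receptor for the C3 fragment C3a, rose from a mean signal of 55.2 (SD 18.0, n = 3) to one of 170.9 (SD 34.3, n = 3), by 1.42 on the log2 scale (limma adjusted p = 5.51e-04). ITGB2, the beta subunit of the complement receptors CR3 and CR4, rose from 526 ± 21.3 to 798 ± 27.7, a log2 change of 0.59 (limma adjusted p = 1.37e-04). The alpha subunits that pair with it had values of 0.23 for ITGAM and 0.82 for ITGAX that did not pass. These receptors are best known from leukocytes. Of 7 blood cell markers, 4 had a probe set of their own, and their summed signal was 250.9 to 281.5 on the control arrays and 266.7 to 348.1 on the LSD1 siRNA arrays. PTPRC, which encodes the pan-leukocyte protein CD45, was below the filter at group means of 22.5 and 27.3, and none of the 3 markers tested passed. The nearest, CSF1R, a macrophage gene, had mean signals of 137 and 189 (limma adjusted p = 0.0753). The part of blood cells in these rises was not tested.

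Among soluble regulators, CLU, which encodes clusterin, an inhibitor of the terminal complex, rose by 0.83 on the log2 scale, from 516 ± 29.1 to 926 ± 31.1 with SDs over 3 arrays (limma adjusted p = 1.12e-05). With the mean of all CLU probe sets the rise was 0.43. C1QBP, whose mainly mitochondrial product can bind C1q, fell by 0.19 on the log2 scale, from 16511 ± 474 to 14428 ± 522 (limma adjusted p = 0.0214). Over the alternatives its adjusted p ranged from 0.00904 to 0.0868, and it did not pass with no intensity trend or without control replicate 2, LSD1 siRNA replicate 1 or LSD1 siRNA replicate 3. THBD, which encodes thrombomodulin, a membrane protein that also dampens complement, rose from 735 ± 9.35 to 1035 ± 66.8, a log2 change of 0.48 (limma adjusted p = 3.65e-04). SERPING1, which encodes the inhibitor of C1r and C1s, was below the filter at mean signals of 2.11 and 8.33.

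Among the other genes of the cascade, those listed for initiation and for the terminal pathway were mostly below the filter. Of 15 genes of classical and lectin pathway initiation, 13 had a probe set of their own, C4A and C4B being the others. Below the filter were 12, the C1q genes C1QA, C1QB and C1QC included. C2, cleaved by C1s, was tested and at -0.19 on the log2 scale did not pass. Of 7 terminal pathway genes, 5 were below the filter, and C5 had a value of 0.20 and C6 of -0.22, neither past the test. CFD, which cleaves factor B, had a value of -0.07, and CFP, which encodes properdin, of 0.91 with a standard error of 0.55; neither passed.

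**Figure D4:**
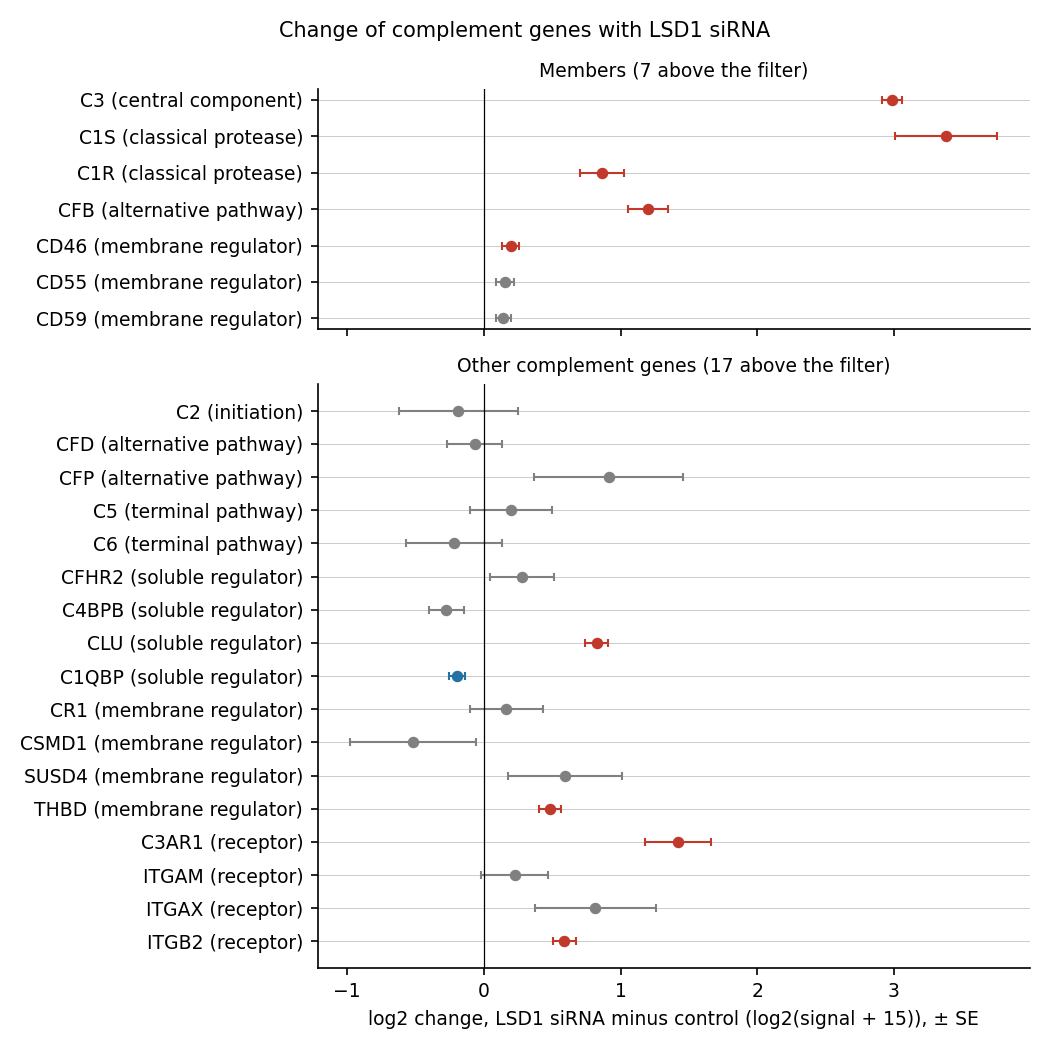
Log2 change with LSD1 siRNA against control siRNA, on log2(signal + 15), with the standard error as bars, for the 7 members (upper) and the 17 other complement genes (lower) above the filter; red marks higher and blue lower at an adjusted p of 0.05, grey not past it. C1S and C3 lie furthest to the right at 3.38 and 2.99, and C1QBP is the only gene called lower.

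Acute-phase genes are often raised together with C3 and CFB, so a list of 20 was examined. Of these, 16 had a probe set of their own and 10 were tested, of which 3 rose and 0 fell in limma, beside 19.8% higher and 21.3% lower among all genes tested. None of the 10 tested had a value below 0, but ORM1 and HP, both below the filter, had lower mean signals with LSD1 siRNA, 8.33 against 14.5 and 19.6 against 25.3. The median log2 change of the 10 was 0.64 and that of all genes tested -0.02. CP and FGA, with control means of 20.6 and 23.8, passed the filter only through the LSD1 siRNA arrays. PTX3, which encodes a pentraxin that can bind C1q, rose by 1.08 on the log2 scale, from 5502 ± 229 to 11638 ± 547 with SDs over 3 arrays (limma adjusted p = 1.79e-07). SERPINA1, which encodes alpha-1 antitrypsin, rose by 1.21 (limma adjusted p = 5.22e-05), or by 0.63 when its probe sets were averaged. LCN2, which encodes lipocalin-2, an iron-siderophore binder, gave 60.5, 5.78 and 92.5 on the control arrays and 264, 262 and 281 on the LSD1 siRNA arrays, a rise of 2.36 (limma adjusted p = 0.00141). Without control replicate 2, its dimmest array, it was 1.66, and it was 1.63 with a constant of 60 and 2.99 with a constant of 1. In the unmoderated test its adjusted p was 0.0826, the highest of a range from 1.15e-04. ITIH4 and CD14 had values of 0.01 and 0.05 that did not pass. Of 4 hepatocyte markers, ALB and APOA1 were below the filter and TTR and TF were tested and did not pass. The summed signal of the 4 was 43.8 to 202 on the control arrays and 130 to 212 on the LSD1 siRNA arrays. ALB, which encodes albumin, had group means of 20.5 and 31.2. The part of other cell types in these results was not tested.

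Of 6 transcription factors tested that are known to act at complement promoters, 1 rose and 1 fell, a share near the 19.8% and 21.3% of all genes. CEBPB rose by 0.44 on the log2 scale, from 9114 ± 78.0 to 12374 ± 543 with SDs over 3 arrays (limma adjusted p = 9.27e-05). STAT3 fell by 0.20 on the log2 scale (limma adjusted p = 0.0158), or by 0.39 when its probe sets were averaged. Over the alternatives the adjusted p of STAT3 ranged from 0.00349 to 0.0813, and it did not pass with no intensity trend or without control replicate 2 or LSD1 siRNA replicate 2. NFKB1 (-0.12), RELA (-0.10), IRF1 (-0.05) and CEBPD (0.02) had values that did not pass, although averaging its probe sets raised CEBPD to 0.37 (limma adjusted p = 0.0216, the lowest over its alternatives, the highest being 0.893). These values are of transcripts and do not measure the activity of the factors.

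**Figure D5:**
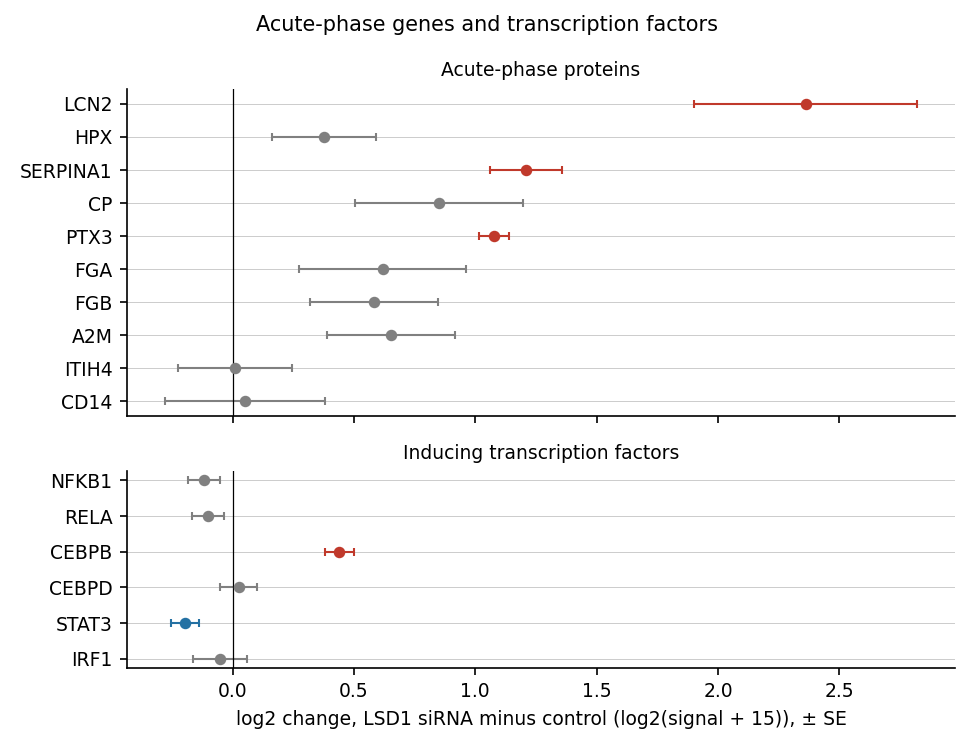
Log2 change with LSD1 siRNA against control siRNA, on log2(signal + 15), with the standard error as bars, for the 10 acute-phase genes and 6 transcription factors tested; red marks higher and blue lower at an adjusted p of 0.05, grey not past it. LCN2, SERPINA1, PTX3 and CEBPB are called higher and STAT3 lower.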

How the data were processed

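RNA of 6 samples, 3 per group, was measured on Affymetrix expression arrays. For each of 54675 probe sets the authors deposited a linear intensity. GCOS, Affymetrix Expression Console 1.1 and MAS5 are named in the submitters' processing notes; other steps are not given in the sources used here. Detection calls are not used here. Scaling to a common trimmed mean removes differences in total RNA per cell.

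Gene names came from the platform annotation: 41091 probe sets had 1 symbol, 1801 several and 11777 none, leaving 19775 genes. Control probe sets were left out. The probe set brightest on average stood for its gene, x-suffix sets only where there was no other. On log2(signal + 15), genes whose mean exceeded that of the 40th percentile of probe sets were tested with limma 3.58.1 in R 4.3.3 (lmFit, eBayes with an intensity trend, no covariate, two-sided, Benjamini-Hochberg over all 13822 genes, threshold 0.05). A second fit took all 27079 probe sets above the filter. The fits were tested on simulated data. RefSeq tables (GRCh38.p14) gave promoters, neighbours and names only. Figures used matplotlib 3.10.9.

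The members, gene lists and motifs were chosen with earlier results of these data known. Named were all members, KDM1A, other complement genes past the threshold with C4A, C5, SERPING1, CLU and C1QBP whatever their values, up to 8 acute-phase genes past it, and the listed transcription factors with a probe set of their own. Some listed items are not reported here. Further genes were named with their values known. Alternatives were constants of 1 and 60, no filter or the 60th percentile, quantile normalization, median centring, no trend, an unmoderated test, the mean of all probe sets, a replicate block, and leaving out each array.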

Additional observations from a re-analysis of the deposited data

How the results depend on the processing

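No log2 change of a named gene or probe set reversed a call, over 573 values under alternatives for 37 such results. Each tested member counts there as a gene and again as the probe set representing it, so the results are not all separate. Of the 573 values, 528 kept their side of the threshold, 28 no longer passed it and 17 newly passed it. C3, C1S, C1R, CLU, THBD, ITGB2, C3AR1, PTX3, SERPINA1 and CEBPB kept theirs under every alternative in which they were tested; C1S and C3AR1 are below a filter at the 60th percentile, which leaves 3 other complement genes higher. KDM1A lay between -3.48 and -3.10. Leaving out 1 array at a time gave 0 to 1 other complement genes lower, and 0 to 1 transcription factors lower. With no intensity trend 0 other complement genes were lower, 5 acute-phase genes were higher and 0 transcription factors were lower. With the mean of all probe sets, 2 transcription factors were higher. The cause was not tested. The number of member genes called higher lay between 4 and 6, and of member probe sets between 6 and 11. Of all genes, the fewest were higher in the unmoderated test, 2070 of 13822, and the most with median centring, 2797 of 13822. For all probe sets the share, 17.0% higher, is given for the main fit only. As the members were chosen for this contrast, these ranges support nothing about the family. With the replicate number as a block, 5 member genes, 4 other complement genes and 3 acute-phase genes were higher, beside 2733 of all 13822 genes. Member probe sets called higher were then 11, against 9 in the main fit. Deviations from the group mean correlated at -0.01 to 0.02 for same-numbered arrays and at -0.03 to 0.02 for differently numbered ones. With 3 arrays per group, these values cannot settle whether same-numbered samples were handled together. Signals near or below the filter, CFI and the controls of C1S among them, limit what can be read.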
